A study of Homo sapiens with 10 samples.

Results

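The HOX cluster genes are the 39 protein-coding genes of GENCODE release 44 whose symbols are HOXA, HOXB, HOXC or HOXD followed by a number, among 19970 protein-coding genes on chromosomes 1 to 22 and X. They lie in 4 clusters on the hg38 assembly, with 11 genes at HOXA on chromosome 7, 10 at HOXB (chr17:48528526-48728750), 9 at HOXC (chr12:53938831-54056030) and 9 at HOXD (chr2:176092721-176190907). Members were taken by symbol. Rb occupancy was profiled by CUT&RUN, in which an antibody directs a nuclease to release the DNA around the bound protein, in a pair of established cell lines from high-grade serous ovarian tumours, OVCAR-3 and Kuramochi. For 2 days cells received either 300 nM INX-315, a CDK2 inhibitor, or DMSO, its solvent. There were 2 Rb libraries for each of the 4 groups and 1 IgG2a control library, made from DMSO-treated cells, for each line. All groups carried the genotype label WT. The study calls these lines cyclin E-driven, each stands for a single tumour, and their identity was not checked against markers because peak lists hold no expression.

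HOX genes encode homeodomain transcription factors that give cells their position along the body axis, and their order along each cluster mirrors the order of their expression domains. Numbered from 1 at the anterior end to 13 at the posterior end, genes with the same number in different clusters are paralogues. In the developing female reproductive tract HOXA9 marks the future fallopian tube, HOXA10 the uterus, HOXA11 the lower uterus and cervix, and HOXA13 the upper vagina. Rb, the retinoblastoma tumour suppressor, is held off E2F target promoters when cyclin-dependent kinases, CDK2 among them, phosphorylate it.

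Every value below comes from lists of peaks that the authors called separately in each library. A promoter spanned 2000 bp upstream to 500 bp downstream of any annotated transcript start, and a gene was called bound in a group when a peak overlapped its promoter in both replicates. The fold enrichment of a peak is the fragment number at its summit over the local background, each plus 1, as the peak caller wrote it. The mean background, in fragments per base, served as the measure of depth and was 0.307 to 0.501 in the OVCAR-3 Rb libraries and 0.216 to 0.445 in those of Kuramochi, and the lists held 5221 to 17281 peaks. The INX-315 libraries were on average shallower than the DMSO libraries of their line, yet their lists were longer. The IgG2a libraries held 257 and 195 peaks, of which 25 and 12 lay on chromosomes 1 to 22 and X and none in a HOX cluster.

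Peaks in the 4 clusters merged across libraries into 64 regions, of which 45 overlapped a HOX promoter, 20 were called in at least 4 of the 8 Rb libraries and 23 in a single library. The sequences of 5 of these regions are shown because the results below turn on them: 2 were called in all 8 libraries, 1 lay at a gene that acquired a peak in both lines, 1 was found in every library of OVCAR-3 and none of Kuramochi, and 1 in every library of Kuramochi. Each is the 121 bases around the summit of the library in which the region ranked highest, read from hg38 on the forward strand, with CpG dinucleotides in capitals.
HOXA9 region, chr7:27169796-27169916: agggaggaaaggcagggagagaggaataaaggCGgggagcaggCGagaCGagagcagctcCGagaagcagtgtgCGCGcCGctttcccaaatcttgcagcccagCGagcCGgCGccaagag
HAGLR region, chr2:176178250-176178370: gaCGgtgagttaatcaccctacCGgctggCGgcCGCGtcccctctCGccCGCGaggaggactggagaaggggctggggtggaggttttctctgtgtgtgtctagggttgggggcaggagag
HOXB7 region, chr17:48610600-48610720: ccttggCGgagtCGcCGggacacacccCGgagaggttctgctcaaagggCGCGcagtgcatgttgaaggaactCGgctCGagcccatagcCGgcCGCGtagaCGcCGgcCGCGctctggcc
HOXD3 intron region, chr2:176140732-176140852: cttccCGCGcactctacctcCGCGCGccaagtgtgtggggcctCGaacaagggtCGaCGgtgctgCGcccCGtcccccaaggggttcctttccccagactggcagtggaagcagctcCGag
HOXA7 to HOXA9 region, chr7:27161014-27161134: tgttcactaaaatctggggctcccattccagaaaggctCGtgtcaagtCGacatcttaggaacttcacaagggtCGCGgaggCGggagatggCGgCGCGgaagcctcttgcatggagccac
The HOXA9 window held 10 CpG dinucleotides, the HAGLR window 8, the HOXB7 window 15, the HOXD3 intron window 11 and the HOXA7 to HOXA9 window 8. At the HOXA9 region the summits of 6 of the 8 libraries fell inside the printed window, although each library was called on its own. The HOXB7 window lies in coding sequence of HOXB7. The HAGLR window overlaps an exon of the non-coding HAGLROS transcript, and the other windows overlap no annotated exon.

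HOXA9 was the 1 HOX gene with a promoter peak in all 8 libraries, a state that 18.8% of all protein-coding genes shared. OVCAR-3 replicates had fold enrichments of 5.37 and 9.67 with DMSO and of 16.5 and 23.9 with INX-315. Kuramochi replicates had 10.7 and 7.77 with DMSO and 21.9 and 19.7 with INX-315. In each line both INX-315 values lay above both DMSO values, and in all 4 Kuramochi libraries it was the highest of any HOX promoter. The peak, chr7:27168983-27170406, did not lie at the principal start of HOXA9. It began 3.45 kb upstream of the canonical start at position 27165537, over 2 alternative starts of the gene, and with promoters restricted to canonical starts HOXA9 was bound in no group.

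The same region contained MIR196B, a microRNA gene between HOXA9 and HOXA10 whose family targets HOX transcripts. Its mature product and that of the MIR196A genes share a seed, bases 2 to 8, printed in capitals as the RefSeq-derived table for GRCh38 gives them.
hsa-miR-196b-5p: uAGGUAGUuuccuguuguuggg
hsa-miR-196a-5p: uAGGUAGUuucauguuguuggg
Both carry the seed AGGUAGU, but the loci differed in whether a peak lay over the microRNA itself. No library had a peak over MIR196A1 in the HOXB cluster or MIR196A2 in the HOXC cluster, where the nearest peak regions were 6667 and 449 bp away. The region near MIR196A2, chr12:53990580-53991289, did overlap the promoter of that gene. It was called in 1 library, OVCAR-3 INX-315 replicate 1, at 4.4-fold. MIR10A and MIR10B, the other deeply conserved microRNA genes of the clusters, also lay under no peak, with the nearest regions 991 and 1312 bp away. MIR7704, at HOXD1, lay within a region called in 5 libraries.

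Few HOX promoters were bound in DMSO-treated cells. In OVCAR-3 a peak was present at 8 and 12 HOX promoters in the respective replicates, and 7 genes (17.9%) had one in both, against 26.8% of all protein-coding genes. Among these were HOXA5, HOXA9, HOXA13, HOXD8, HOXD10 and HOXD11. In Kuramochi the replicates had peaks at 4 and 11 HOX promoters, and 3 genes (7.69%) were bound, against 24.8% of all genes: HOXA9, HOXA10 and HOXD13, the last a determinant of digit patterning. The Kuramochi count rested on the shorter list, since replicate 2 alone had 11 genes. The HOXA10 peaks of the Kuramochi DMSO replicates did not overlap, nor did the HOXA13 peaks of the OVCAR-3 DMSO replicates. No gene of the HOXB or HOXC cluster was bound under DMSO in either line, and OVCAR-3 had no peak anywhere within those 2 clusters in either DMSO library.

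With INX-315, peaks were present at 24 and 28 HOX promoters in the OVCAR-3 replicates and at 23 and 20 in those of Kuramochi. OVCAR-3 had 23 bound HOX genes (59.0%, against 55.5% of all genes) and Kuramochi 18 (46.2%, against 53.2%). By cluster, OVCAR-3 had 9 of 11 HOXA, 5 of 10 HOXB, 3 of 9 HOXC and 6 of 9 HOXD genes bound, and Kuramochi 4 of 11, 4 of 10, 2 of 9 and 8 of 9. The lines therefore differed in which cluster was fuller, HOXA in OVCAR-3 and HOXD in Kuramochi, a difference that was not tested. By position, 15 of the 23 genes numbered 1 to 8 and 8 of the 16 numbered 9 to 13 were bound in OVCAR-3, whereas Kuramochi had 8 of 23 and 10 of 16.

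**Figure D1:**
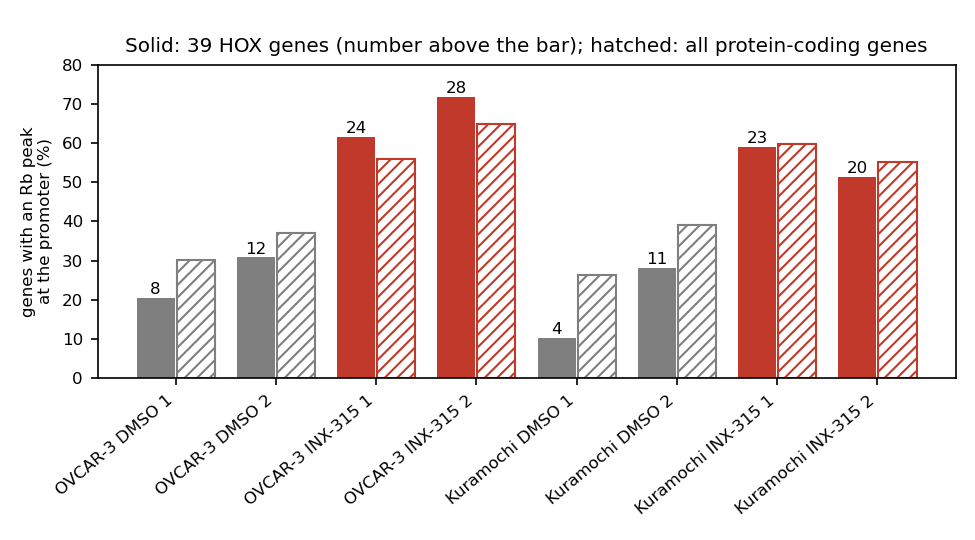
Share of genes with an Rb peak at the promoter in each Rb library, in percent, for the 39 HOX genes (solid bars, with the number of genes above) and all 19970 protein-coding genes (hatched bars), with DMSO in grey and INX-315 in red. The HOX share lies below that of all genes in the 4 DMSO libraries, and in the INX-315 libraries it lies above it in OVCAR-3 and below it in Kuramochi.

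A gene was called gained when both INX-315 replicates and neither DMSO replicate had a peak. There were 11 gained HOX genes in OVCAR-3 (28.2%, against 16.2% of all genes) and 8 in Kuramochi (20.5%, against 14.0%), and none was lost in either line. Without Kuramochi DMSO replicate 2, the longer of its DMSO lists, 14 were gained in that line (35.9%, against 27% of all genes). Among genes without a peak in either DMSO replicate, 42.3% of 26 HOX genes were gained in OVCAR-3, against 27.1% of all such genes, and 29.6% of 27 in Kuramochi, against 23.5%. The size of these shares depended on counting alternative starts. With canonical starts alone, 7 were gained in OVCAR-3 (17.9%, against 15.7%) and 6 in Kuramochi (15.4%, against 13.5%), shares near those of all genes. In OVCAR-3 the gained genes were HOXA2, HOXA10, HOXB3, HOXB4, HOXB5, HOXB6, HOXB7, HOXC5, HOXC8, HOXC13 and HOXD3. In Kuramochi they included HOXB2, HOXB7, HOXC9, HOXC13, HOXD9, HOXD10 and HOXD11, of which HOXD10 and HOXD11 share a single peak. The HOXC9 peaks of the Kuramochi INX-315 replicates lay apart. Replicate 1 had 4.27 at chr12:54000021-54000584 and replicate 2 had 4.93 at chr12:53994695-53994996, so no HOXC9 peak was reproduced at one site. The HOXA10 peaks of the OVCAR-3 INX-315 replicates did not overlap either.

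These counts moved with the length of the lists. When each library of a line was reduced to the same number of peaks, those with the smallest p-values, OVCAR-3 retained 5 bound HOX genes with DMSO and 7 with INX-315, against 24.8% and 29.0% of all genes. Kuramochi had 1 and 3, against 21.8% and 25.0%. Then 1 HOX gene, HOXC13, was gained in OVCAR-3 and 0 in Kuramochi, against 2.33% and 2.03% of all genes.

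HOXB7 and HOXC13 were gained in both lines. HOXC13, which controls hair keratin genes, had no peak in any DMSO library and INX-315 peaks of 10.4-fold and 19.8-fold in the OVCAR-3 replicates and of 16.6-fold and 7.88-fold in those of Kuramochi. Its peaks had their summits between −205 and −138 bp relative to the annotated start, upstream of it. HOXB7, a homeodomain factor also studied in breast cancer, likewise had no DMSO peak, and with INX-315 its values were 9.11 and 13.2 for OVCAR-3 against 8.95 and 4.55 for Kuramochi. Its summits lay 344 to 468 bp downstream of the start, inside the first part of the gene. In the weakest of these, Kuramochi INX-315 replicate 2, the HOXB7 summit held 6 fragments, where the lowest summit of any peak in that list held 3.

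**Figure D2:**
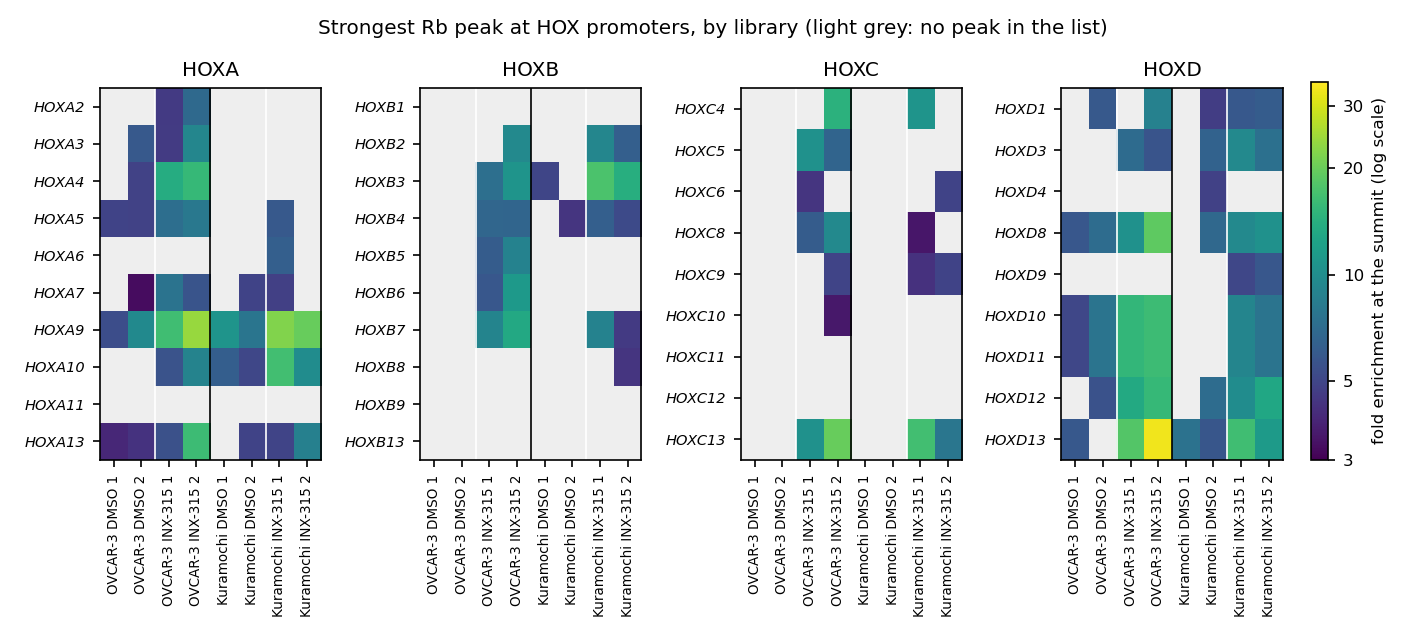
Fold enrichment at the summit of the strongest Rb peak at 38 of the 39 HOX promoters (rows, in numerical order in each cluster) in each of the 8 Rb libraries (columns), on a log colour scale, with light grey where a list had no peak. The HOXB and HOXC panels are nearly empty in the DMSO columns, HOXA9 is filled in every column, and the HOXA2 to HOXA4 rows are filled in OVCAR-3 alone.

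A further group of genes was bound in both replicates of one line and had no peak in either replicate of the other under the same treatment. With DMSO, 4 HOX genes (10.3%, against 2.72% of all genes) had this state in OVCAR-3 and 1 (2.56%, against 2.15%) in Kuramochi. Among the former, HOXA5, a regulator of lung development, had OVCAR-3 values of 4.94 and 4.87 with DMSO, 7.30 and 7.99 with INX-315, and a single Kuramochi peak of 5.95 in INX-315 replicate 1. The peak shared by HOXD10 and HOXD11, both posterior limb genes, had OVCAR-3 values of 5.04 and 7.73 with DMSO and 15.3 and 16.2 with INX-315, while Kuramochi had 9.14 and 7.75 with INX-315 alone. In the reverse direction, the 1 gene was HOXA10, which had 6.23 and 5.07 in Kuramochi with DMSO and no peak in OVCAR-3. With INX-315 the Kuramochi values were 16.6 and 9.87, and OVCAR-3 had 5.65 and 8.98. The Kuramochi DMSO peaks, chr7:27172828-27173630 and chr7:27172419-27172726, did not overlap. Nor did the OVCAR-3 INX-315 peaks, chr7:27172664-27173167 and chr7:27173220-27173801. With canonical starts alone, HOXA10 was not bound in Kuramochi with DMSO. It was then gained in Kuramochi and not in OVCAR-3.

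Under INX-315, 6 HOX genes (15.4%, against 2.80% of all genes) were bound in OVCAR-3 with no peak in Kuramochi, and 1 (2.56%, against 1.27%) was bound in Kuramochi with none in OVCAR-3. HOXA2, a regulator of hindbrain and branchial arch identity, had fold enrichments of 4.56 and 6.96. HOXA3, required for thymus and parathyroid development, had 4.59 and 9.27, with 5.93 in OVCAR-3 DMSO replicate 2. The 9.27 belonged to a separate region, chr7:27139240-27140079, called in that library alone. At the shared region, chr7:27113032-27113566, INX-315 gave 4.59 and 4.18, below the 5.93 of DMSO replicate 2. HOXA4 had 13.7 and 15.6, with 4.87 in OVCAR-3 DMSO replicate 2. HOXA2 to HOXA4 are neighbours, and none of them had a promoter peak in the Kuramochi lists. HOXB5 had 6.12 and 8.93, HOXB6 5.84 and 11.3, and HOXC5 10.4 and 6.61, all absent under DMSO. HOXD9 had the opposite state, with 5.06 and 5.85 in Kuramochi and no OVCAR-3 peak. Several of these summits held 5 to 9 fragments, so absence from a list means at most that a peak was not called at this depth.

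Across all HOX promoters with a peak, including those named above, peaks were generally modest. The median percentile of HOX promoter peaks within their own list, where 100 is the highest fold enrichment, ranged from 29.0 in Kuramochi DMSO replicate 2 to 52.0 in Kuramochi DMSO replicate 1. The highest value of any HOX promoter was 33.2, at HOXD13 in OVCAR-3 INX-315 replicate 2. For OVCAR-3, HOXD13 had 5.89 in 1 DMSO library, none in the other, and 18.2 and 33.2 with INX-315. For Kuramochi it had 7.55 and 5.78 with DMSO and 16.4 and 11.4 with INX-315. HOXA13 had OVCAR-3 values of 3.94 and 4.31 with DMSO and 5.51 and 16.1 with INX-315, where 1 of the INX-315 values was much the higher. HOXD8 had 5.84 and 7.16 with DMSO and 10.4 and 19.1 with INX-315 in the same line, and HOXD12 5.55 in 1 DMSO library and 13.4 and 15.5 with INX-315. The other OVCAR-3 DMSO library had a peak of 5.6 in the same region, chr2:176097122-176098160, that ended just outside the HOXD12 promoter.

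A promoter peak was found in no library at 6 HOX genes, 15.4% of the 39 against 31.2% of all genes. They were HOXA11, HOXB1, HOXB9, HOXB13, HOXC11 and HOXC12, of which HOXB9 and HOXC11 had a peak elsewhere in the gene, in 1 and 3 libraries. HOXB13, a prostate lineage factor, stands far from the rest of its cluster, and HOXA11 is the 1 gene of the reproductive tract series without a promoter peak. No gene of the HOXD cluster was in this class. A further 4 genes had a promoter peak in 1 library only, namely HOXA6, HOXB8, HOXC10 and HOXD4, and HOXD4 also had a peak over an exon beyond its promoter in 3 libraries.

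**Figure D3:**
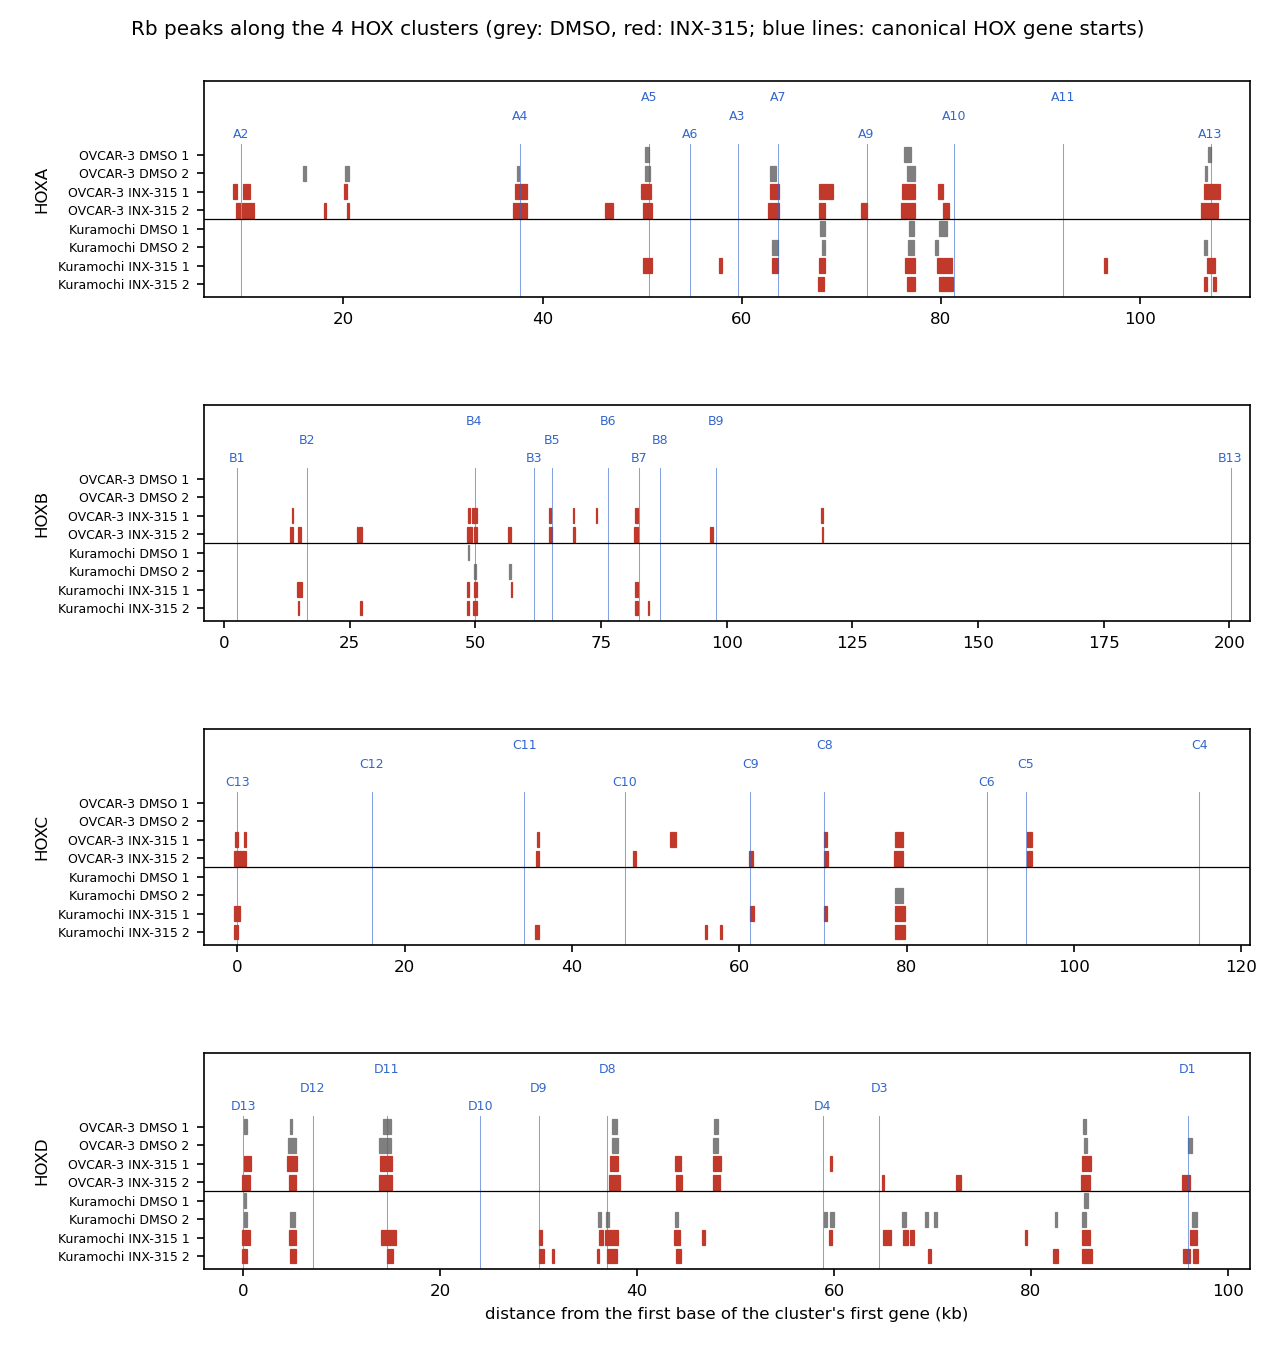
Rb peaks along the 4 HOX clusters for each of the 8 Rb libraries, drawn to scale in kb from the first base of the first gene of each cluster, with the first 6 kb of HOXA left out, with DMSO in grey, INX-315 in red and the canonical start of each gene shown as a blue line. Grey peaks are seen in the HOXA and HOXD panels and nearly none in the HOXB and HOXC panels, and the HOXB13 end of the HOXB panel holds no peak.

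Counted over the whole 523 kb of the 4 clusters, OVCAR-3 had 10 and 14 peaks with DMSO and 34 and 43 with INX-315, and Kuramochi 6 and 21 against 33 and 29. OVCAR-3 peaks covered 0.848% and 1.40% of the clusters with DMSO and 4.38% and 6.04% with INX-315, and Kuramochi peaks 0.538% and 1.63% against 3.97% and 2.97%. Over the genome, coverage was 0.0977% to 0.192% in DMSO libraries and 0.318% to 0.498% in INX-315 libraries. In each library the covered share of the 523 kb was thus above that of the genome as a whole. This did not hold for every cluster. HOXB and HOXC had 0% coverage in both OVCAR-3 DMSO libraries, as had HOXC in Kuramochi DMSO replicate 1. Counted by promoter, the HOX share lay below that of all genes except in the OVCAR-3 INX-315 libraries. Coverage was not compared with other regions of similar promoter density.

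Outside HOX promoters, 3 regions were called in at least 4 libraries. The first, chr2:176177801-176178879, was called in all 8. It lies over starts of HAGLR and HAGLROS, non-coding transcripts of the HOXD cluster, 10.3 kb from the nearest HOX start, that of HOXD1. OVCAR-3 was enriched there 6.08-fold and 7.13-fold with DMSO and 12.2-fold and 13.9-fold with INX-315, and Kuramochi 7.23-fold and 5.07-fold against 11.4-fold and 7.09-fold, where 1 DMSO library exceeded 1 INX-315 library. The second, chr2:176140393-176141208, lies in an intron of HOXD3, 3.84 kb from the nearest HOX start. OVCAR-3 values were 8.70 and 9.95 with DMSO and 9.94 and 25.9 with INX-315, with 12, 14, 12 and 36 fragments at the summit, and no peak in any Kuramochi library. The third, chr7:27160703-27162194, is intergenic between HOXA7 and HOXA9, 3.51 kb from the start of HOXA7. It was present in all 4 Kuramochi libraries, at 9.69 and 5.07 with DMSO and 8.54 and 11.5 with INX-315. OVCAR-3 had it with INX-315 only, at 7.42 and 13.3.

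To compare the size of peaks between libraries, the whole number of fragments at each summit was recovered from the caller's values and expressed as a multiple of the library's mean background, here called summit height. Of 3269 regions called in all 8 libraries, 3229 had a recovered height throughout and were tested with limma, and 2 of them lay in a HOX cluster. At the HOXA9 region OVCAR-3 summit heights were 16.2 and 29.9 with DMSO and 71.8 and 85.6 with INX-315, and Kuramochi heights 33.7 and 26.3 against 79.0 and 111. Groups did not overlap in either line, and the log2 difference averaged over the lines was 1.74 ± 0.29 (SE; adjusted p = 5.87e-09, limma). At the HAGLR region OVCAR-3 heights were 20.2 and 23.9 with DMSO and 62.0 and 61.8 with INX-315, and Kuramochi heights 22.5 and 15.8 against 37.0 and 37.1. This gave a log2 difference of 1.23 ± 0.29 (SE; adjusted p = 2.77e-05, limma). Exact two-sided permutation of treatment labels within lines gave p = 0.0556 for each, the smallest value that the 36 arrangements allow. Without Kuramochi DMSO replicate 1, the shortest list, 4 HOX regions were called in all remaining libraries. That fit leaves 1 library in a group, and its HOX regions were not set against all regions.

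The rises at the HOXA9 and HAGLR regions were not particular to HOX regions. Of the 3229 regions, 99.5% were higher under INX-315 and 0% lower, with a median log2 difference of 1.66. After each library was centred on its median, the difference was 0.07 ± 0.23 at the HOXA9 region (adjusted p = 0.859, limma) and −0.44 ± 0.23 at the HAGLR region (adjusted p = 0.210, limma), so neither was called. Regions of a library share its overall enrichment, and the limma p-values of the uncentred heights do not account for that.

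**Figure D4:**
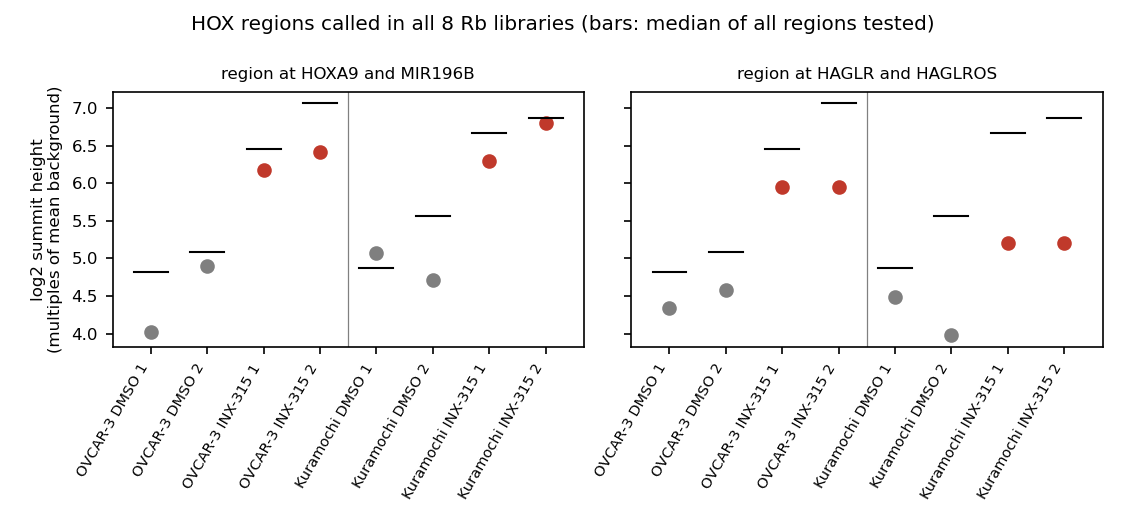
Log2 summit height, in multiples of the mean background, of the 2 HOX cluster regions called in all 8 Rb libraries, with DMSO in grey and INX-315 in red, beside the median of all 3229 regions tested in each library (black bars). Points and bars are higher with INX-315 in both lines, and the points lie below the bars except at the HOXA9 region in Kuramochi DMSO replicate 1.

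Between the lines, neither region passed the test. The HOXA9 region was 0.35 ± 0.29 higher in Kuramochi on the log2 scale (SE; adjusted p = 0.401, limma) and the HAGLR region fell by 0.48 ± 0.29 (SE; adjusted p = 0.221, limma), where 20.3% of regions were higher and 10.3% lower in Kuramochi. Centred on the library medians, the HAGLR region was lower in Kuramochi by a log2 difference of −0.61 ± 0.23 (SE; adjusted p = 0.0387, limma). No share of all regions is given for this centred comparison, so it is not known whether such a call was unusual. The INX-315 effect in Kuramochi minus that in OVCAR-3 was −0.18 ± 0.58 at the HOXA9 region and −0.52 ± 0.58 at the HAGLR region (SE; adjusted p = 0.997 for each, limma). This difference was called at 0% of all regions, while 6 had a positive and 114 a negative difference at an unadjusted p under 0.05.

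More HOX regions could be compared within a line, among those called in its 4 Rb libraries, a comparison chosen after seeing the data. In OVCAR-3, 9 HOX regions were tested and all 9 rose under INX-315 (limma), as did 98.5% of the 4870 regions. Log2 differences ran from 0.98 ± 0.41 at HOXA5 (adjusted p = 0.0181) to 1.83 ± 0.41 at HOXA9 (adjusted p = 1.82e-05), around a median of 1.44, against 1.77 for all regions. In Kuramochi, 5 were tested and all 5 were called higher (limma), as were 94.3% of 4484 regions. These differences ran from 0.91 ± 0.42 at the region between HOXA7 and HOXA9 (adjusted p = 0.0335) to 1.71 ± 0.42 at HOXA10 (adjusted p = 0.000151), with a median of 1.49, equal to the 1.49 of all regions. The HOXA10 region, chr7:27172419-27174246, also overlaps a HOXA9 promoter. Its Kuramochi DMSO heights come from peaks that did not overlap, as do the OVCAR-3 DMSO heights of the HOXA13 region. At the region between HOXA7 and HOXA9 the groups overlapped, with heights of 29.2 and 15.8 with DMSO and 27.2 and 60.2 with INX-315. Without Kuramochi INX-315 replicate 2, the shallowest library, 3 of the 5 were called, as were 69.6% of all regions.

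Relative to the median of all regions, no HOX region was called higher. In OVCAR-3 all 9 centred differences were negative, from −0.88 to −0.03. Of these 0 were called higher, against 1.75% of all regions, and 1 lower, against 6.82%. The 1 called was the HOXA5 region, with summit heights of 14.1 and 14.0 with DMSO, 29.4 and 26.2 with INX-315 and a centred difference of −0.88 ± 0.28 (SE; adjusted p = 0.0917, limma, under the study's threshold of 0.1 for CUT&RUN). In Kuramochi centred differences ran from −0.61 to 0.18 and none of the 5 was called, against 1.32% of regions higher and 3.99% lower. By this measure the HOXA10 region, with heights of 18.0 and 15.8 with DMSO and 59.3 and 50.9 with INX-315, had the most positive value, 0.18 ± 0.30 (SE; adjusted p = 0.756, limma).

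**Figure D5:**
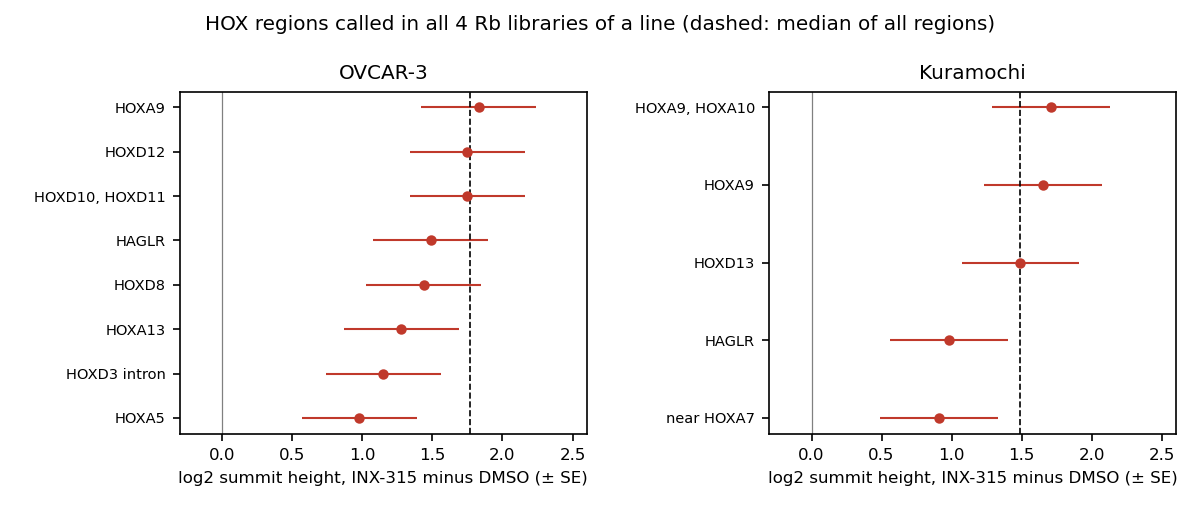
Log2 difference in summit height between INX-315 and DMSO, with its SE, at HOX cluster regions called in all 4 Rb libraries of OVCAR-3 (left) or Kuramochi (right), 8 of the 9 shown on the left, named by the promoters they overlap, with the median of all regions tested as a dashed line. All points lie above 0, and those of OVCAR-3 scatter from 0.98 to 1.83 around and below the dashed line at 1.77.

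The strings TTTCCCGC, TTTCGCGC, TTTGCCGC and TTTGGCGC, together the E2F consensus, were sought on both strands in the 201 bases around each summit. They occurred in 1 of 64 HOX cluster regions (1.56%), a region at HOXB7 and HOXB8 called in 1 library, and in 3.59% of all 22760 regions and 4.04% of all 16143 promoter regions. None of the 20 HOX regions called in at least 4 libraries held one, against 4.82% of all promoter regions called as often. The string TTTGAA, named the cell cycle homology region, occurred in 1 of 64 HOX regions (1.56%) and 5.28% of all regions. HOX regions called in at least 4 libraries were CpG-rich, with a median of 19 CpG dinucleotides per window, against 20 for all promoter regions called as often. RefSeq promoters of 300 bases were at hand for 20 of the 39 HOX genes, 27 promoters in all. An E2F string occurred in 1 of them (3.7%, against 4.14% of all promoters), an alternative promoter of HOXA3, and TTTGAA in 5 (18.5%, against 12.4%). The promoters of HOXA11 and HOXB1, which had no promoter peak in any library, held 13 and 11 CpG dinucleotides, against a median of 25 in the 12 promoters of HOX genes with a peak in at least 4 libraries. The comparison is by gene, and some of the 12 promoters, such as those of HOXD10 and HOXD12, lay under no peak. Of the 6 genes without a promoter peak, only HOXA11 and HOXB1 had promoters at hand.

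Genes that act with or upon HOX proteins were described by the same rule. TALE cofactors are homeodomain partners that bind DNA jointly with HOX proteins, and of 9 such genes OVCAR-3 had 3 bound with DMSO and 6 with INX-315, and Kuramochi 4 and 7. These are 33.3% and 66.7% in OVCAR-3, against 26.8% and 55.5% of all genes, and 44.4% and 77.8% in Kuramochi, against 24.8% and 53.2%. PBX3 had the strongest peak among them and exceeded every HOX promoter in each of the 8 libraries. In OVCAR-3 its fold enrichments were 35.5 and 52.6 with DMSO and 67.4 and 124 with INX-315, and in Kuramochi 15.7 and 29.5 against 81.1 and 75.7. PKNOX1 had 11.7 to 37.6 over the OVCAR-3 libraries and 11.8 to 38.4 over those of Kuramochi.

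Of 14 upstream regulators and relatives of HOX genes, OVCAR-3 had 4 bound with DMSO (28.6%) and 8 with INX-315 (57.1%), and Kuramochi 5 (35.7%) and 6 (42.9%), against 26.8%, 55.5%, 24.8% and 53.2% of all genes in that order. CTCF, the insulator protein that partitions HOX clusters, and KMT2A, a histone methyltransferase that maintains HOX expression, had a peak in all 8 libraries. CDX1, CDX2 and CDX4, caudal-type activators of HOX genes, had none. Of 70 homeobox genes outside the clusters, 21 and 40 had the bound state in OVCAR-3 with DMSO and INX-315 respectively, and 14 and 38 in Kuramochi, shares of 30%, 57.1%, 20% and 54.3%, to be read against those same all-gene values. A peak in all 8 libraries was found at 14 of these 70 genes (20%), at 18.8% of all genes and at 1 of the 39 HOX genes (2.56%). The highest-ranked of the 14 were OTX1, NKX6-1, PAX6 and VAX2, which act in head, neural tube and eye development.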

How the data were processed

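Rb and IgG2a CUT&RUN peak lists of OVCAR-3 and Kuramochi were analysed, with groups and replicate numbers taken from the sample labels. Each group had 2 independent cultures, by the study's methods. Per the submitters' processing notes and the study's methods, reads were aligned to hg38 with Bowtie2 2.3.4.1 and peaks were called in each library with MACS2 2.2.7.1 against the IgG2a library of the line (q-value threshold 0.05). The deposited lists give, for each peak, a fold enrichment (a linear ratio) and −log10 p-values and q-values written by the authors' peak caller.

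Fragments at a summit and local background were solved jointly from the fold enrichment and the −log10 p-value (relative tolerance 6e-06), and 98.8% or more of the peaks in any Rb library gave 1 whole number. The lowest background of a library served as its depth. Overlapping peaks (1 bp or more) of the 8 Rb libraries formed regions. GENCODE release 44 (251784 transcript starts) defined promoters, and the last peak of all 23 main chromosomes ended inside the reference.

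Log2 summit heights were fitted with limma 3.58.1 in R 4.3.3 on group means, with Benjamini-Hochberg adjustment over all regions and a threshold of 0.1. Only regions called in every library of a fit have values, so the fits cannot include gained regions. The lists hold no reads, so the study's count-based test was not used. Alternatives were a q-value of at most 0.001, lists of one length, narrower or canonical promoters, summits inside promoters, centred heights, the listed fold enrichment, a replicate block and leaving out each library. Named genes were those bound in all 8 libraries, gained in both lines, bound in one line and absent in the other, or called by limma; others of the text were chosen after their values were seen, and regions outside promoters were named when called in at least 4 libraries. The counts cover all 39 genes, but the values of 1 HOX gene and the sequence of 1 region are not reported here. The members and gene lists were chosen with earlier results of these data known.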

Additional observations from a re-analysis of the deposited data

How the results depend on the processing

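With each list of a line reduced to the same number of peaks, bound HOX genes numbered 7 in OVCAR-3 INX-315, 1 in Kuramochi DMSO and 3 in Kuramochi INX-315, and gained HOX genes 1 in OVCAR-3 and 0 in Kuramochi. The bound HOX share went from 59.0% to 17.9% in OVCAR-3 INX-315, and that of all genes from 55.5% to 29.0%. In Kuramochi INX-315 the HOX share went from 46.2% to 7.69%, and that of all genes from 53.2% to 25.0%. The cause was not tested. With canonical starts only, 1 HOX gene was bound in Kuramochi DMSO and 7 were gained in OVCAR-3. Leaving out 1 library gave 8 to 12 bound genes in OVCAR-3 DMSO, 4 to 11 in Kuramochi DMSO and 9 to 14 gained in Kuramochi, while the shares of all genes were 30.1% to 37.0%, 26.3% to 39% and 15.3% to 27%. It also changed how many HOX regions were called higher under INX-315, in the fit over both lines and within Kuramochi. In such fits the number of regions tested changes too, and 1 group keeps 1 library. Heights centred on the median left 0 HOX regions higher over both lines, 0 within OVCAR-3 and 0 within Kuramochi, and 1, the HAGLR region, lower in Kuramochi. The listed fold enrichment called 3 of 5 within Kuramochi and 80.5% of all regions there, and the cause was not tested. The groups share replicate numbers only as numbers, since the replicate 1 minus replicate 2 differences of the DMSO and INX-315 libraries correlated at −0.04 in OVCAR-3 and −0.01 in Kuramochi over 3229 regions. With a replicate block, 2 HOX regions were higher under INX-315, all 9 within OVCAR-3 and all 5 within Kuramochi, and 1, the HAGLR region, was lower in Kuramochi, the cause of which was not tested. The other 108 combinations of a result and an alternative stayed on the same side, or within 1.5 times the count. Absence of a peak is limited by depth, and the lists contain no reads from which an upper limit could be set.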
